A study of Mus musculus with 3 samples.

Results

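The proteasome genes were described here at the level of their promoters, in open chromatin mapped by DNase-seq. The members are the protein-coding genes of the GENCODE annotation whose symbol is Psma, Psmb, Psmc, Psmd, Psme or Psmf followed by a digit, and there are 46 of them among 21938 protein-coding genes. They comprise 31 standard subunits, 3 assembly chaperones of the 19S cap, 5 activator and inhibitor genes, 3 immune subunits, 1 thymus subunit and 1 testis subunit. The symbols of 2 further genes match without naming a standard part of the particle. Psmc3ip encodes a recombination factor of germ cells, and Psme2b is a copy of an activator gene with a single annotated transcript start.

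All libraries came from 1 group, embryonic liver of C57BL/6N,129 mice at 13.5 days that are homozygous for a globin mutation in which HS2 and HS3 are deleted. The labels number 3 biological replicates of whole liver tissue and give the same donor entry for all 3, so the spread given below is that between these samples. No unaltered liver was analysed here, and no genotype comparison was made. DNase I cuts DNA where chromatin is open, and stretches protected from cutting inside an open region, called footprints, mark bases that may be covered by a bound protein. In bulk tissue, fewer cells with an open promoter and a less open promoter in each cell cannot be told apart.

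The 26S proteasome degrades proteins tagged with ubiquitin. Its 20S core is a barrel of alpha and beta rings, with the proteolytic sites on 3 of the beta subunits, and its 19S cap recognises, unfolds and feeds in the substrate through a ring of ATPases. Cells exposed to interferon, and many blood cells, replace the catalytic beta subunits by immune counterparts that alter which peptides are presented to T cells, and separate subunits serve the thymic cortex and the testis. Red cell precursors, the main cells of the liver at this stage, clear much of their protein content through this system as they mature.

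A promoter was called open where the shorter deposited peak list held a peak within 500 bp of any annotated start, and its signal was that of the strongest such peak, the highest depth-normalised cut density in it. A signal of 0 means only that the list held no peak there. The shorter lists held 28209, 57314 and 41319 peaks in replicates 1, 2 and 3, and the signal steps imply 79.4, 119.5 and 132.7 M cuts if 1 step is 1 cut after scaling to 1 M cuts. The tissue label was checked on marker promoters. All 4 red cell precursor markers (Gata1, Klf1, Epor and Tal1) were open in all 3 replicates. None of the 16 markers of hepatoblasts, macrophages, thymic epithelium, male germ cells, T cells or endothelium was open in all 3. Hnf4a, Apoa1 and Cd68 had a peak in replicate 2 alone.

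Nearly all proteasome promoters were open. Peaks were found at 43 of 46 members in replicate 1, 44 in replicate 2 and 43 in replicate 3, against 51.5%, 57.5% and 55.5% of all protein-coding genes. In all 3 replicates together 43 members were open, or 93.5%, against a background of 50.9%. With the longer lists this was 44 members against 55.7% of all genes. With the start of the principal transcript alone, chosen after seeing the data, it was 42 members against 47.2%. All 31 standard subunit genes were open in every replicate. The 3 members that were not open throughout were the immune subunit gene Psmb8, the thymus subunit gene Psmb11 and the copy Psme2b. The share of open promoters among the members was therefore far above the background, with the exceptions all outside the standard set.

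**Figure D1:**
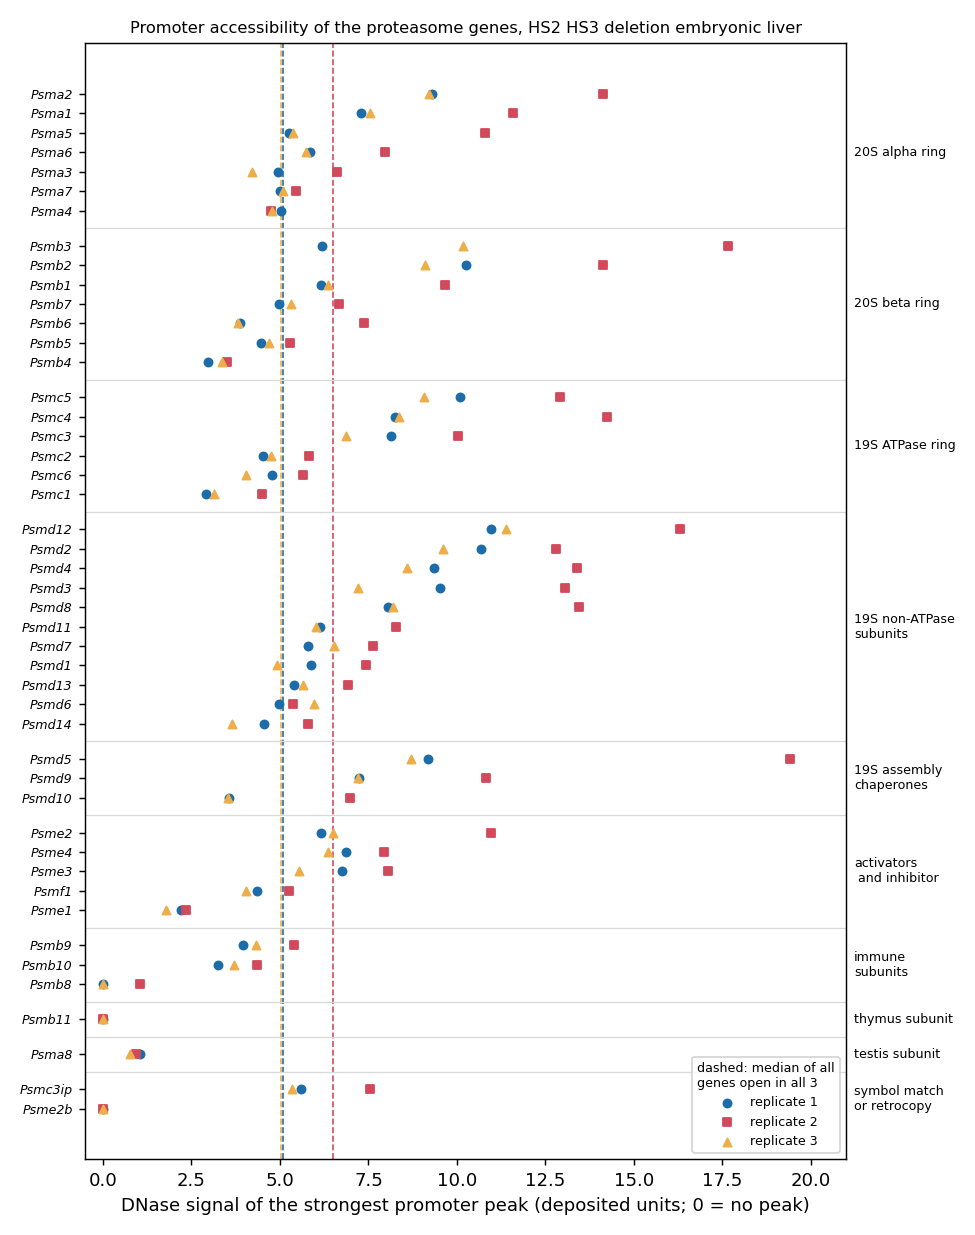
Signal of the strongest promoter peak (x axis, deposited units) for each of the 46 members (rows, grouped by role), with 1 symbol per replicate and dashed lines at the median of all genes open in all 3 replicates. Replicate 2 (squares) lies to the right at most members, standard subunits spread on both sides of the dashed lines, and the immune, thymus and testis subunits lie left of the line of their own replicate.

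The standard subunits were not all equally open. Their median signal was 5.86, 7.96 and 5.96 in replicates 1, 2 and 3, a mean of 6.59 ± 1.18 (SD, n = 3). The median of the 11161 genes open in all 3 was 5.08, 6.50 and 5.04, a mean of 5.54 ± 0.833. The standard subunits stood higher in each replicate, though the ranges of the 2 medians over the replicates overlapped. Of the 31, 20 had a mean signal above the median of open genes (5.59). Mean signals ran from 3.28 at Psmb4 to 12.9 at Psmd12.

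Replicate 2 gave the highest signal at 40 of the 43 members open throughout (93.0%), and at 75.3% of all open genes. The median ratio of replicate 2 to replicate 1 was 1.34 at the members and 1.29 at all open genes. The coefficient of variation over replicates had a median of 19.2% at the members and 18.1% at all open genes. The log2 signals of the members had a Pearson's r of 0.930, 0.958 and 0.946 over 43 genes for replicates 1 and 2, 1 and 3, and 2 and 3. These are correlations across genes, which are not independent replicates.

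The 7 alpha subunits form the outer rings of the 20S core and gate its entry. Their median signal was 5.27, 7.96 and 5.36 in the 3 replicates, and 4 of 7 had a mean above the median of open genes. Psma2 was the highest, at 9.29, 14.1 and 9.21, or 10.9 ± 2.82 (SD, n = 3). Replicate 2 stood above the other replicates, which were nearly equal. The Psma2 peak lies upstream of its start and nearer to the start of Mrpl32, a mitochondrial ribosomal protein gene on the opposite strand, so its height cannot be assigned to either gene. Psma4 was the lowest, at 5.03, 4.76 and 4.76, or 4.85 ± 0.154, and it was the steadiest member, with a coefficient of variation of 3.17%. Psma7, the standard counterpart of the testis subunit, had 5.0, 5.46 and 5.10, or 5.19 ± 0.243. The lowest values of Psma2 were above the highest of Psma4 and Psma7 in every replicate.

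Promoter sequences of both ends of this ring are given from GRCm38 (mm10), as chr13:14613080-14613259 and chr9:54950760-54950814, both on the plus strand. They are shown because the footprints of both hold the nuclear respiratory factor motif described further on. In these and all later sequences, capitals mark the bases that lie inside a footprint in all 3 replicates.
Psma2 promoter: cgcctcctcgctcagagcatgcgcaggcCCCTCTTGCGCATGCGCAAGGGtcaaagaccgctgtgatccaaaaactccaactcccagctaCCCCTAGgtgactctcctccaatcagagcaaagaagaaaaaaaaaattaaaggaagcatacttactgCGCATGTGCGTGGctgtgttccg
Psma4 promoter: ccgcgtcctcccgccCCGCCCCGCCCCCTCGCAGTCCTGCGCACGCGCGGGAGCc

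The 7 standard beta subunits form the inner rings. Their median signal was 4.96, 7.38 and 5.33, and 4 of 7 had a mean above the median of open genes. Psmb3, a subunit without a catalytic site, was the highest by mean and varied widely between replicates, at 6.19, 17.6 and 10.2, or 11.3 ± 5.82 (SD, n = 3). Psmb4, also without a catalytic site, was the lowest, at 2.97, 3.51 and 3.38, or 3.28 ± 0.277. The highest replicate of Psmb4 lay below the lowest of Psmb3. The catalytic subunit genes lay between them and lower in the range. Psmb5, the chymotrypsin-like subunit, had 4.47, 5.27 and 4.69, or 4.81 ± 0.412. Psmb6, the caspase-like subunit, had 3.87, 7.38 and 3.83, or 5.03 ± 2.04. Psmb7, the trypsin-like subunit, had 4.96, 6.67 and 5.33, or 5.65 ± 0.898. The 3 ranges overlapped. Within each replicate Psmb7 was above Psmb5, while Psmb6 was below both in replicates 1 and 3 and above both in replicate 2. Psmb2 stood near the top with Psmb3, at 10.3, 14.1 and 9.11. Psmb1 has a peak at its principal start (6.16, 7.23 and 6.22) and another at a distant annotated start beside that of Tbp, the TATA-binding protein gene. The peak beside Tbp was the stronger in replicates 2 and 3 (9.66 and 6.37).

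Sequences of 3 beta promoters are given. Psmb2 and Psmb3 are shown for the motifs in their footprints, and Psmb5 for comparison with its immune counterpart, with a motif match that only touches a footprint. They are Psmb5 at chr14:54617993-54618192 on the minus strand, Psmb2 at chr4:126677570-126677649 and Psmb3 at chr11:97703309-97703418, both on the plus strand.
Psmb5 promoter: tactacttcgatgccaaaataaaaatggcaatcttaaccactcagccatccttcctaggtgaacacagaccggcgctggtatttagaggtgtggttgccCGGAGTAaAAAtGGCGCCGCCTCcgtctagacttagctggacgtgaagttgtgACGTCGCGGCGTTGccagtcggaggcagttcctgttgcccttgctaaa
Psmb2 promoter: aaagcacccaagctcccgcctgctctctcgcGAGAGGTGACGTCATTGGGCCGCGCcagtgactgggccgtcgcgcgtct
Psmb3 promoter: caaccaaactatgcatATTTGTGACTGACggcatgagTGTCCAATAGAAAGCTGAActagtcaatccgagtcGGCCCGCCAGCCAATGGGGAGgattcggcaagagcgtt

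The 6 ATPases drive unfolding at the base of the cap. Their median signal was 6.46, 7.93 and 5.81, and 3 of 6 had a mean above the median of open genes. Psmc5 was the highest, at 10.1, 12.9 and 9.06, or 10.7 ± 2.00 (SD, n = 3), with Psmc4 next at 8.25, 14.2 and 8.36. Those ranges overlapped. Psmc1 was the lowest, at 2.91, 4.48 and 3.14, or 3.51 ± 0.85, and its replicates all lay below those of Psmc5. Psmc2 had 4.52, 5.83 and 4.75, from a peak nearer to the start of Dnajc2, a chaperone gene. The Psmc5 promoter, at chr11:106256094-106256173 on the plus strand, is shown for its nuclear respiratory factor motif, which it shares with Psma2 and Psma4.
Psmc5 promoter: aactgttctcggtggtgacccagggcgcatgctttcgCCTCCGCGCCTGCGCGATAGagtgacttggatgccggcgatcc

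The 11 non-ATPase subunits of the cap include the ubiquitin receptor Psmd4 and the deubiquitinase Psmd14. They had the largest share above the median of open genes, 9 of 11, and their median signal was 6.14, 8.28 and 6.53. Psmd12, a scaffold subunit of the lid, had the highest mean of all members, at 10.9, 16.3 and 11.4, or 12.9 ± 2.98 (SD, n = 3), and lay at the 93.4th percentile of open genes. Psmd14 was the lowest, at 4.54, 5.80 and 3.63, or 4.66 ± 1.09. The groups of 3 values did not overlap. In replicate 2 alone Psmd5 (19.4) and Psmb3 (17.6) exceeded Psmd12. Without replicate 1 or without replicate 3 the mean of Psmd5 was above that of Psmd12 (14.1 against 13.9, and 14.3 against 13.6). Without replicate 1 the mean of Psmb3 was also slightly above that of Psmd12. Psmd2 (11.03 ± 1.62), Psmd4 (10.4 ± 2.58), Psmd3 (9.92 ± 2.94) and Psmd8 (9.91 ± 3.08) followed, and the ranges of these 4 genes overlapped that of Psmd12. Psmd13 has a pair of peaks of similar height, both close to starts of Sirt3, a mitochondrial deacetylase gene.

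The 3 chaperones hold parts of the 19S base apart until the cap is assembled. Psmd5 was the highest, at 9.19, 19.4 and 8.70, or 12.4 ± 6.05 (SD, n = 3). Replicate 2 stood far above the other replicates, which were close to each other. Psmd9 had 7.25, 10.8 and 7.20, and Psmd10, the oncoprotein also called gankyrin, was the lowest at 3.55, 6.97 and 3.52, or 4.68 ± 1.98. The replicates of Psmd10 all lay below those of Psmd5. The promoters of Psmd5 (chr2:34870943-34871072, minus strand) and Psmd9 (chr5:123228130-123228209, plus strand) are shown because each held a motif in a footprint that was found so at no other member.
Psmd5 promoter: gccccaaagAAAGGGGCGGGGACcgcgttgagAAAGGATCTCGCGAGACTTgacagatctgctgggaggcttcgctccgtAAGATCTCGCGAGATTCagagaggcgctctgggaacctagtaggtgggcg
Psmd9 promoter: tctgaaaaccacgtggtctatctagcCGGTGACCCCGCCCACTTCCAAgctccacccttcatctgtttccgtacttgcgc

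Activators bind the ends of the core in place of the 19S cap. Psme1 and Psme2 encode the subunits of the interferon-inducible activator PA28, Psme3 its nuclear relative, Psme4 the activator PA200 and Psmf1 the inhibitor PI31. All 5 were open in all 3 replicates. Psme1 was the lowest, at 2.22, 2.33 and 1.79, or 2.12 ± 0.285 (SD, n = 3). Its partner Psme2 was the highest, at 6.17, 10.96 and 6.50, or 7.88 ± 2.67. The strongest peak in the Psme2 window, however, sits at the start of Rnf31, a ubiquitin ligase gene, and the peak at the start of Psme2 itself had 4.12, 6.84 and 4.01. By that peak every replicate of Psme2 still exceeded every replicate of Psme1, but its mean of 4.99 was below those of Psme3 and Psme4. Psme3 (6.78 ± 1.26), Psme4 (7.05 ± 0.801) and Psmf1 (4.55 ± 0.638) lay in the range of the standard subunits.

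The immune subunits differed from one another in relation to their standard counterparts. Psmb8, which replaces Psmb5, appeared in the shorter list of replicate 2 and in neither of the others, with a signal of 1.05. The longer lists held a peak in all 3 replicates, at 1.11, 1.05 and 0.678. On these longer lists Psmb8 differed from Psmb5 by -2.01, -2.33 and -2.79 on the log2 scale, a mean of -2.38 ± 0.391 (SD, n = 3), or a 5.20-fold lower signal. The deposited base-by-base false discovery rate was under 0.05 for 147, 275 and 328 of the 1001 bases around the Psmb8 start, against 593, 701 and 586 at Psmb5. The ranges of the 2 genes did not overlap by either measure. Replicate 2, the only one with a shorter-list peak at Psmb8, also had the most peaks overall and the only peaks at the markers Hnf4a, Apoa1 and Cd68, whose part in this value was not tested.

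Psmb9, which replaces Psmb6, had 3.97, 5.40 and 4.32, or 4.56 ± 0.745 (SD, n = 3). Its difference from Psmb6 was 0.04, -0.45 and 0.17 on the log2 scale, a mean of -0.08 ± 0.33, within the spread between replicates. The peak lies in the 5′ untranslated part of exon 1 of the principal Psmb9 transcript. The nearest coding start, 45.5 to 55.5 bp from its centre, belongs to Psmb9. The peak is also within 500 bp of a start of Tap1, which encodes the peptide transporter of antigen presentation. The genes share this region, on opposite strands, and the signal cannot be assigned to either.

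Psmb10, which replaces Psmb7, had 3.24, 4.34 and 3.71, or 3.77 ± 0.554 (SD, n = 3). It lay below Psmb7 in every replicate, with differences of -0.62, -0.62 and -0.52 on the log2 scale and a mean of -0.59 ± 0.06 or 1.5-fold. That peak, however, is not at the start of the coding transcript. Its centre lay 1352.5, 1363.5 and 1343.5 bp downstream of it in the 3 replicates, in intron 4 of 8 exons, near the starts of a processed transcript and 2 retained-intron transcripts of the gene and inside the antisense gene Gm16156. Within 500 bp of the coding start a shorter-list peak was present just in replicate 2, at 1.12. The longer lists held weak peaks there in the other replicates too, at 1.07 in replicate 1 and 0.761 in replicate 3. False discovery rates under 0.05 covered 49, 636 and 149 of 1001 bases there. With the principal start alone Psmb10 was therefore not open in all 3, and its difference from Psmb7 in replicate 2 was -2.57.

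**Figure D2:**
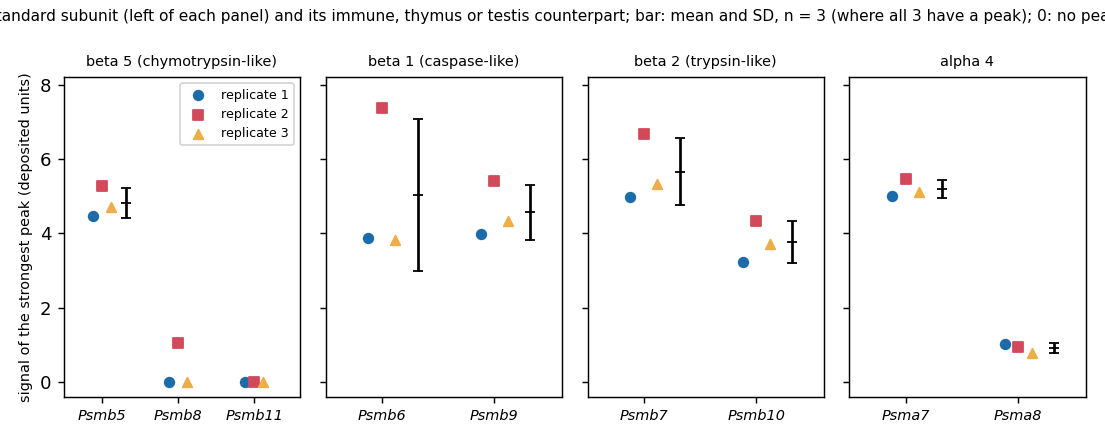
Signal of the strongest shorter-list promoter peak (y axis, deposited units) for each standard catalytic or alpha subunit gene and its immune, thymus or testis counterpart, with 1 symbol per replicate and a bar for mean and SD (n = 3) where all 3 replicates have a peak. Psmb8, Psmb11 and Psma8 lie below their counterparts without overlap, Psmb9 overlaps Psmb6, and the Psmb10 points come from the internal peak.

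The sequences under these peaks are shown for comparison with Psmb5. The Psmb8 stretch is chr17:34197580-34197719 on the plus strand and holds 1 footprint common to all 3 replicates. The Psmb10 stretch is the internal site, chr8:105936995-105937174 on the minus strand. From the region shared by Psmb9 and Tap1 only short pieces around a common footprint are given, at chr17:34187374-34187401 and chr17:34187451-34187480 on the minus strand.
Psmb8 promoter: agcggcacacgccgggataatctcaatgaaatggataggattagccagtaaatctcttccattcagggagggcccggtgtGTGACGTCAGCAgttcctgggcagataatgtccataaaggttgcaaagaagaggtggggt
Psmb10 internal site: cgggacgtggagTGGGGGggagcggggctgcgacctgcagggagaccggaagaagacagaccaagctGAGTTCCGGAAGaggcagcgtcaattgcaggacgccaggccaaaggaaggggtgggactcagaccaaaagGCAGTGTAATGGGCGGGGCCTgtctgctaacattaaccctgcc
Psmb9 by Tap1, first piece: ccctTGCGCGATGATGGGGCGGGGCCtc
Psmb9 by Tap1, second piece: ctcTGTcgTCACCTGTCTCTGGGCAgattt

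Psmb11 encodes the catalytic subunit of cortical thymic epithelium and is a neighbour of Psmb5 on chromosome 14. No list held a peak within 500 bp of its starts in any replicate, and 0 of 1001 bases around its principal start had a listed false discovery rate in any replicate. Its start is unique sequence, with 100% of the 32-base words within the surrounding 1 kb found once in the genome, so reads could be placed there. The thymic epithelium markers Foxn1 and Epcam were also without a shorter-list peak in all 3 replicates.

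Psma8 replaces Psma7 in the testis. Its promoter was open in all 3 replicates, but at 1.03, 0.946 and 0.768, or 0.916 ± 0.135 (SD, n = 3), the lowest signal of any member open throughout and at the 4.05th percentile of open genes. It lay below Psma7 in every replicate, with differences of -2.28, -2.53 and -2.73 on the log2 scale and a mean of -2.51 ± 0.23 or 5.71-fold. The base-by-base false discovery rate was under 0.05 for 453, 484 and 505 of 1001 bases. Replicate 2 was not the highest here, unlike at most members. The germ cell markers Ddx4, Sycp3 and Acrv1 had no shorter-list peak in any replicate.

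The 2 genes that match by symbol alone differed. Psmc3ip had 5.58, 7.54 and 5.34, or 6.15 ± 1.21 (SD, n = 3), within the range of the standard subunits. Psme2b had no peak in any list. At Psme2b, however, only 25.5% of the 32-base words around the start are found once in the genome, so reads from it could often not be placed, and its value of 0 is not a measurement of closed chromatin.

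Peaks at the members were narrow and centred on the start. Among members open throughout, the median width of the strongest peak was 240, 220 and 220 bp, against 260, 240 and 240 bp at all open genes. It covered the principal start at 79.1%, 79.1% and 83.7% of members, against 66.7%, 66.1% and 68.4% of open genes. By the centre of the peak, 20, 28 and 25 members had it upstream of the principal transcript and 18, 13 and 12 in its 5′ untranslated region. Centres over 1 kb from the principal start were found at Psmb10 in all 3 replicates and at Psmb1 in replicates 2 and 3. Another protein-coding gene had a start within 500 bp of a start of 11 of 46 members (23.9%), against 13.1% of all genes and 22.1% of open genes. A distal region common to all 3 replicates, over 1 kb from any start, lay within 50 kb of 26 of 46 members (56.5%), against 40.7% of all genes and 49.8% of open genes. The most, 4, were near Psmd3.

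**Figure D3:**
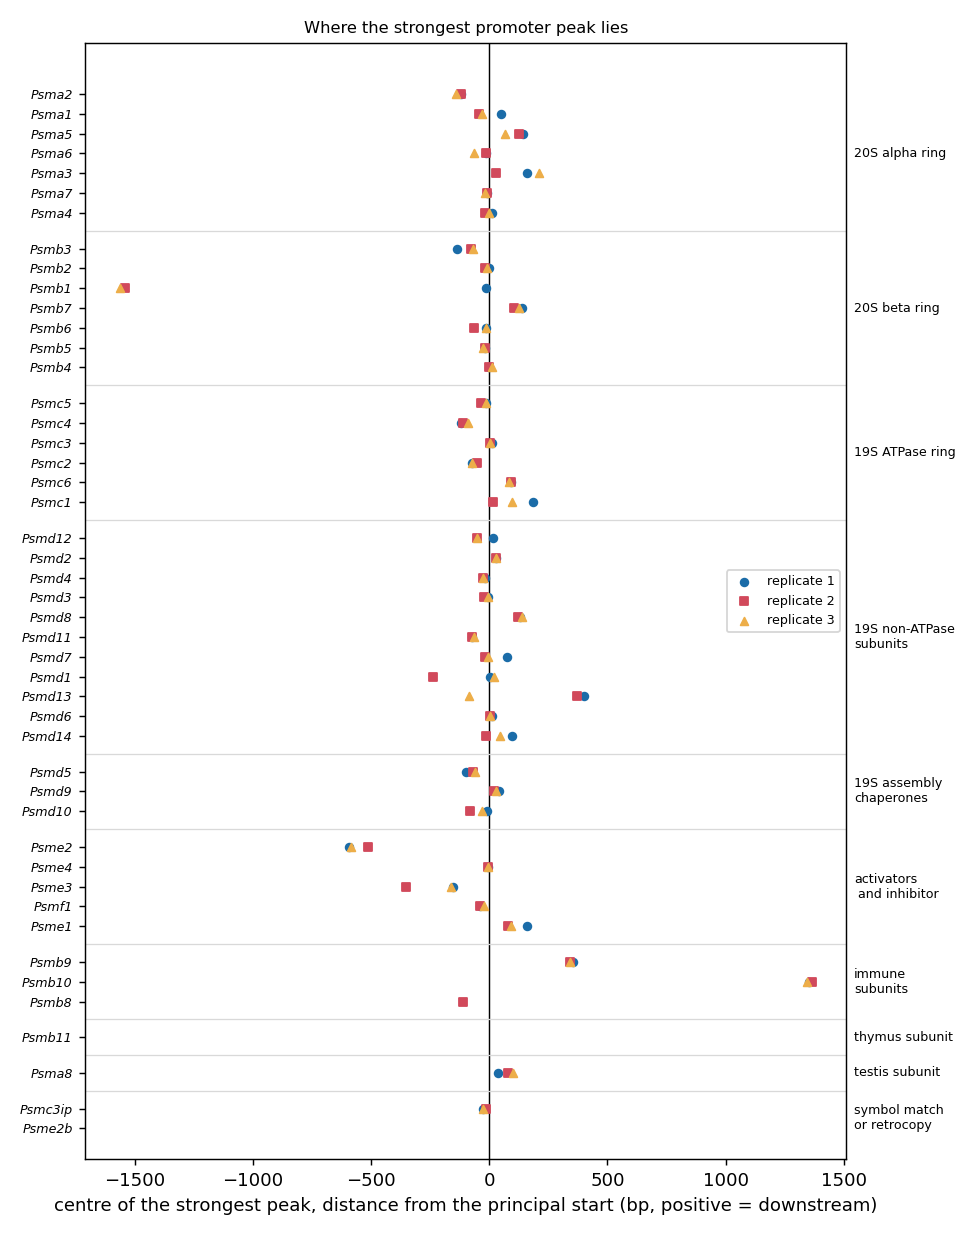
Centre of the strongest shorter-list peak as distance from the principal start (x axis, bp) for each member (rows), with 1 symbol per replicate. Most centres lie near 0, while Psmb10 lies over 1 kb downstream in all 3 replicates, Psmb1 over 1 kb upstream in replicates 2 and 3, and Psme2 at the start of Rnf31.

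The promoters of the members were richer in CpG than those of all genes and close to those of open genes. The ratio of observed to expected CpG in the 1 kb around the principal start had a median of 0.723 at all 46 members, 0.763 at the standard subunits, 0.748 at all open genes and 0.571 at all protein-coding genes. It was 0.791 at Psmb5, 0.670 at Psmb6 and 0.784 at Psmb7. Among their counterparts it was 0.568 at Psmb8, 0.659 at Psmb9 and 0.265 at Psmb10, each below its standard subunit. At Psmb11 it was 0.392, at Psme1 0.404, and at Psma8 0.564 against 0.967 at Psma7.

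Footprints were numerous at the open members, and about as many as elsewhere. The median number within 500 bp of a start was 8, 8 and 7 in the 3 replicates at the 43 open members, and 7, 8 and 8 at all open genes. Common footprints, joined by overlap with all 3 replicates contributing, had a median of 3 per member and ranged from 0 to 7. Of the 43 members, 41 had at least 1 (95.3%, against 92.7% of open genes). Psmd1, a scaffold subunit of the cap base, and Psmb1 had the most, 7 each. The Psmb1 count includes the distant start beside Tbp. Of its 13, 10 and 11 footprints in the 3 replicates, 7, 4 and 6 lay within 500 bp of its principal start. Psme1 and Psma8, which had the lowest signals, had none. Psmb5 had 9, 9 and 8 footprints, Psmb8 had 1, 2 and 3, Psmb9 had 5, 5 and 6, and Psmb10 had 8, 10 and 6. Of the Psmb10 footprints, 1, 0 and 0 lay within 500 bp of its principal start.

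Common footprints gathered just upstream of the start. Of 134 within 500 bp of the principal start of an open member, 38.1% lay in the 100 bp upstream, against 30.7% of 34963 at all open genes. In the next 100 bp upstream the shares were 11.9% and 18.2%. The median position was -22.25 bp at the members and -41.5 bp at all open genes.

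**Figure D4:**
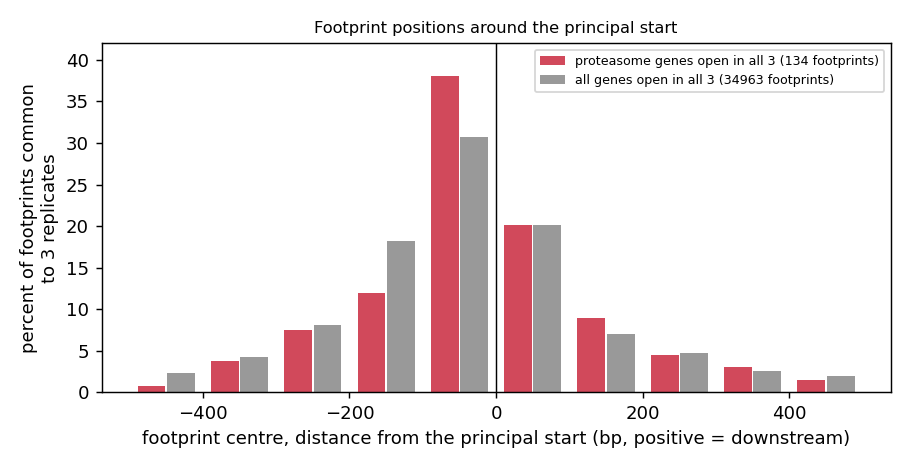
Percent of footprints common to 3 replicates (y axis) in 100-bp bins of distance from the principal start (x axis, bp), for the proteasome genes and all genes open in all 3. The tallest bin in both sets is the 100 bp upstream of the start, with 38.1% at the proteasome genes and 30.7% at all open genes.

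The DNA letters of 13 motifs were searched on both strands, in the 300 bases from 250 before to 50 after the principal start and in the common footprints. A motif counted in a footprint only where it lay wholly inside a footprint in each of the 3 replicates. A match describes the letters and not binding. Of the 43 open members, 26 held at least 1 motif in a footprint, against 50.6% of all open genes.

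The GC box GGGCGG, read by Sp and KLF factors, was the most frequent, inside a footprint at 20 of 43 members (46.5%) against 36.9% of open genes. In the 300-base promoter it was found at 63.0% of members, 66.3% of open genes and 45.4% of all genes, so the members lay near the open genes and above all genes. The ETS core CCGGAA showed the widest gap between members and other promoters, at 22 of 46 members (47.8%) against 29.8% of open genes and 18.1% of all genes. It was wholly inside a footprint at 4 members, Psmb1, Psmb10, Psmd14 and Psme4, or 9.30% of the open members against 4.42% of open genes. This count was 9 without replicate 1 and 8 without replicate 2. Leaving out a replicate can only keep or raise it, and the share of open genes was not counted this way. At Psmb1 the footprint match is at the Tbp start. The overlap between these 2 motifs and the others was not removed.

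The nuclear respiratory factor motif (GCGC, any 2 bases and GCGC) lay in a footprint at 6 members, the alpha subunits Psma2, Psma3, Psma4 and Psma5 and the ATPases Psmc4 and Psmc5. This is 13.95% of open members and 12.0% of open genes, so the motif is as common elsewhere. In the 300-base promoter it was found at 13.04% of members, 14.5% of open genes and 8.32% of all genes. Its centre lay 13.5 bp upstream of the Psmc5 start and 12.5 bp downstream of the Psma4 start, within the capitals of the sequences above.

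The antioxidant response element TGACNNNGC is read by NFE2L1 and NFE2L2, factors known to induce proteasome genes. It was found in the promoters of 7 members, Psmb2, Psmb5, Psmb6, Psmc6, Psmd12, Psmd7 and Psmd9. This is 15.2% of members, 14.5% of open genes and 12.8% of all genes. It lay wholly inside a footprint at Psmd9 alone, 2.33% of open members against 1.68% of open genes. It touched a footprint at 3 members, a looser rule for which no share of open genes was counted. At Psmb5 the match begins just before the last capitals of the printed promoter.

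ZBTB33 reads the letters TCTCGCG, which were in a footprint at Psmd5 alone, or 2.33% of open members against 1.58% of open genes. Promoters held them at 8.70% of members, 5.90% of open genes and 3.43% of all genes. The full palindrome TCTCGCGAGA, searched after seeing the data, was present 2 times in the Psmd5 footprints, centred 21.5 and 67.5 bp upstream of the start. In promoters it was found at Psmd5 and Psmb2, and at 1.08% of open genes and 0.606% of all genes.

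The CREB and ATF core TGACGT lay in a footprint at Psmb2 and at Psmb8, which was not open in all 3. Among open members the share is 2.33%, against 3.74% of open genes. In promoters the core was found at 13.04% of members, 12.8% of open genes and 8.81% of all genes. At both genes it is the full palindrome TGACGTCA, also searched after seeing the data. Promoters held the palindrome at 4.35% of members, 3.73% of open genes and 2.48% of all genes. In footprints it was found at 2.33% of open members and 2.35% of open genes. The palindrome is centred 19.5 bp upstream of the Psmb2 start and 125.5 bp upstream of the Psmb8 start. It lies in the only footprint that Psmb8 had in all 3 replicates.

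The NF-Y box CCAAT lay in footprints at Psmb2 and Psmb3, with 2 copies at Psmb3, or 4.65% of open members against 4.01% of open genes. It was in the promoters of 39.1% of members, 39.6% of open genes and 38.6% of all genes. YY1's ATGGCGG was in a footprint at Psmd1 and Psmd12 (4.65% against 2.03%), and in promoters at 10.9% of members, 8.67% of open genes and 5.11% of all genes. The heat shock letters TTCNNGAA were in a footprint at the internal site of Psmb10 alone (2.33% against 0.278%), where they overlap ETS letters, and in promoters at 10.9%, 6.53% and 7.49%.

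The motifs of interferon signalling were not seen in footprints of the members, and were rare in those of all open genes. The interferon-stimulated letters (GAAA, any 2 bases and GAAA) were in no common footprint of any member, against 0.0179% of open genes. They were in the promoters of 5 members, Psma4, Psmb3, Psmd4, Psmd7 and Psmd9 (10.9%, against 2.79% of open genes and 3.59% of all genes). No immune subunit gene was among these members. At Psmb9 and Psmb10, however, the promoter bases searched do not reach the strongest peak, which lies further downstream of the principal start. Those peaks were searched only in their common footprints. The STAT letters TTCNNNGAA were in no footprint, against 0.233% of open genes. They were in the promoters of Psmb8, Psmc6, Psmd2 and Psmd3 (8.70%, 6.76% and 8.22%). The erythroid GATA letters AGATAA were also in no footprint, against 0.125% of open genes. They were in the promoters of 7 members (15.2%, 5.96% and 9.78%), among them Psmb8. THAP11's ACTACAA was in no footprint, against 0.0986% of open genes, and in promoters at 4.35%, 4.54% and 3.77%.

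**Figure D5:**
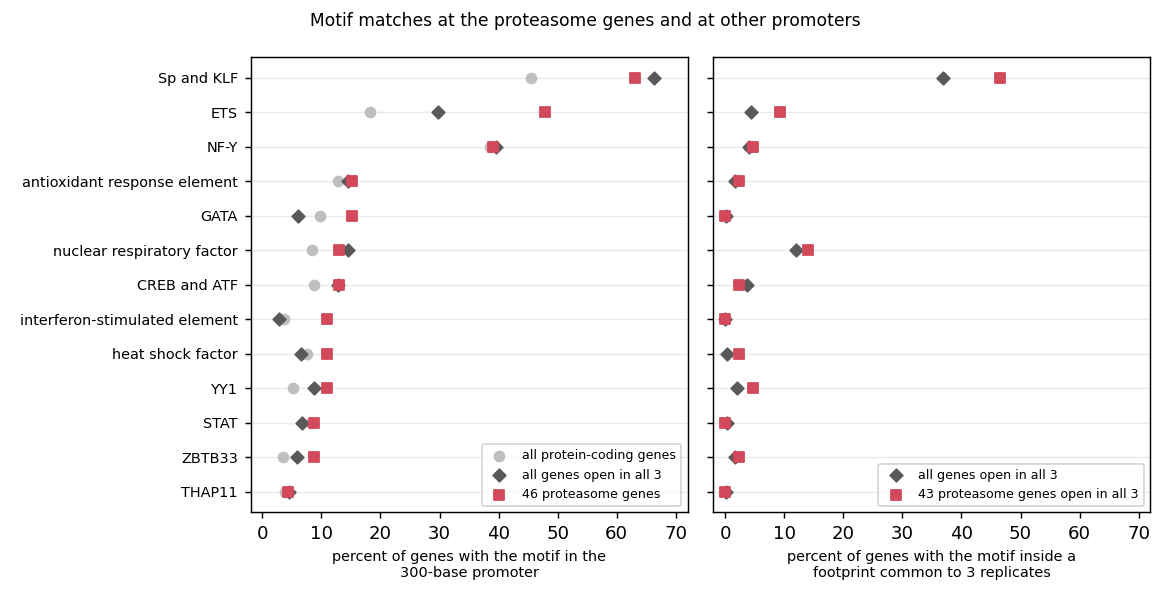
Percent of genes (x axes) with each of 13 motifs in the 300-base promoter (left) and wholly inside a footprint common to 3 replicates (right), for the proteasome genes and other genes. The ETS motif has the widest gap in promoters, 47.8% of members against 29.8% of open genes, and the GC box the widest in footprints, 46.5% against 36.9%.

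Genes that work with the proteasome were open as well, where 50.9% of all protein-coding genes are open in all 3 replicates. Of the core assembly chaperones 5 of 5 were open in all 3 replicates, from Pomp, the maturation factor of the core, at 3.12 ± 0.0451 (SD, n = 3), to Psmg1 at 12.6 ± 2.50. Further partners of the 26S particle were open at 6 of 6, with the deubiquitinase gene Uchl5 at 14.6 ± 4.16. The genes of proteasome gene activation were open at 5 of 5, Nfe2l1 at 10.03 ± 4.63 and Nfe2l2 at 13.5 ± 4.01. Ubiquitin and its activating enzymes were open at 6 of 6, and shuttle factors with the unfoldase Vcp at 6 of 6. Of the genes of antigen processing and interferon response 9 of 12 were open in all 3, again against 50.9%. The exceptions were Nlrc5, the activator of MHC class I genes, and Cd74 and H2-Aa, genes of MHC class II antigen presentation. The median signal of that list, with 0 for genes without a peak, was 3.15, 3.58 and 3.62. This was below that of the standard subunits, all of them open, in every replicate. The Tap1 value is that of the peak already given for Psmb9.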

How the data were processed

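DNase-seq of 3 biological replicates of 1 group was used. Per the labels, the build is mm10. No aligner or caller is named in the sources used here. The peak lists the authors deposited hold a signal, the highest cut density in a peak normalised to read depth. The deposited false discovery rates, a p-value type of measure, list only stretches below 0.05, and the footprints the authors deposited carry a false discovery rate threshold of 0.01 as their p-value. The members and gene lists were chosen with earlier results of these data known.

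Protein-coding genes on 21 chromosomes came from GENCODE release M21, and sequences from the RefSeq copy of GRCm38. The principal start is that of the transcript with the best APPRIS rank. The window was 500 bp, and the shorter peak list of each replicate was used. Footprints that overlapped by at least 1 base, directly or through another footprint, were joined. A joined footprint was common where all 3 replicates contributed to it, even without a base covered by all 3. Printed capitals are bases that all 3 cover.

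Genes given per replicate were the immune, thymus and testis subunits, their counterparts, the highest and lowest member of each class, and members not open in all 3. Others named were singled out after their values were seen. No test was run, because 1 group of 3 replicates is too small for an exact one. The functions were tested on simulated intervals. Python 3.11 with numpy and pandas was used. Alternatives were the longer list, windows of 200 and 1000 bp, 1 start per gene, the upper 50% of peaks, ranks, and leaving out each replicate.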

Additional observations from a re-analysis of the deposited data

How the results depend on the processing

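Of 182 alternatives to the main counts and values in the same unit, 171 stayed within 1.5 times the count or 1 SD and 11 moved. Some of the 171 could only stay as they were, such as a count of 0 under a stricter rule. No value larger than its SD changed sign. Psmb9 minus Psmb6, within its SD of 0, was 0.11 without replicate 2 against -0.08 with all 3. A further 5 alternatives were percentile ranks, compared by direction only. The number of members open in all 3 replicates was 43 without any 1 replicate, a change that cannot lower it. It ranged from 38 (1 start per gene) to 44 (longer list) over the other settings. Besides the main setting (50.9%), the share of all genes is given only for the longer list (55.7%) and the principal start (47.2%). The other counts have no background beside them. With 1 start per gene, the 5′ end of the gene record, the open chaperones fell to 1 of 3 and the open immune subunits to 1 of 3. With the principal start only, an alternative chosen after seeing the data, 1 immune subunit was open. With the upper 50% of peaks the testis subunit gene had no peak (0). Psmb8 minus Psmb5 was -2.33 from replicate 2 alone and -2.38 with the longer list. Psmb10 minus Psmb7 was -2.57 with 1 start per gene and with the principal start, from replicate 2 alone. The median number of footprints per member, 7.5, was 6 within 200 bp, 6.33 with 1 start per gene, 5 inside peaks only and 7 with the principal start. The median signal of the standard subunits was 5.91 to 6.96 with a replicate left out, and their median percentile among all genes was 79.2 against 74.5 for the median open gene. Counting only peaks nearest the member's own start, also chosen after seeing the data, 40 members were open. This filter was applied to the members alone, so no share of all genes can be set beside it. Motif matches in footprints were found at 27 members and at 37 when 1 shared base sufficed. ETS matches went from 4 to 10 members, and to 9 without replicate 1 and 8 without replicate 2. These looser rules can only keep or raise a motif count. They were applied to the members alone, so no share of open genes can be set beside them. No pair value exists for Psmb11, nor for Psmb8 and Psma8 among the upper 50% of peaks. The cause of these changes was not tested. Weak promoters are the least certain at these depths, such as Psmb8, whose peak was in the longer list and not the shorter in replicates 1 and 3. No paired analysis was possible because there is 1 group, with no second group to pair it with. Differences between genes were taken within each replicate.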
